A study of Mus musculus with 6 samples.

Results

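Semaphorins, plexins and neuropilins form a family of guidance ligands and their receptors, and 31 of the 23029 genes in the deposited RPKM table of mouse dorsal root ganglion (DRG) cells belong to it. Members were taken by symbol alone, as every Sema3 to Sema7 gene, every plexin gene of the classes A to D and both neuropilin genes, a rule that uses no measured value. They comprise 7 secreted class 3 semaphorins, 13 membrane semaphorins, 9 plexins and 2 neuropilins. RNA came from 3 subsets of cells separated by fluorescence sorting, each with 2 libraries. All animals, those of every subset included, had the genotype GINIP+/mcherry, in which a red fluorescent reporter marks cells that use the GINIP gene, and IB4, an isolectin that labels many nonpeptidergic neurons, gave the other gate. DP cells (IB4+GINIP+) are described as Mrgprd+ sensory neurons, C-LTMR cells (IB4-GINIP+) are touch-sensitive neurons with thin unmyelinated fibres (C-fibre low-threshold mechanoreceptors). The DN sort (IB4-GINIP-) holds whatever both gates left. Age, sex and the number of animals per library were not found in the labels, nor is it said that replicates came from separate animals, so that the p-values speak only of the spread among these 6 samples, which could be technical.

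Semaphorins share an extracellular sema domain and steer growing axons, mostly by repulsion. Class 3 semaphorins are secreted and as a rule bind a neuropilin, which has no signalling domain of its own and pairs with a class A plexin as the signalling chain, whereas membrane semaphorins bind plexins directly. The cytoplasmic part of a plexin acts on small GTPases, and neuropilins also bind vascular endothelial growth factors. In the developing DRG, Sema3a is known as a repellent of sensory axons that carry Nrp1, and several members are also made by blood vessels and glia.

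Values are RPKM (reads per kilobase of gene length, scaled to the size of the library), given with replicate 1 first and replicate 2 second, and every mean ± SD has n = 2 libraries. Differences are log2 fold changes on log2(RPKM + 0.1), a scale that understates changes of low genes, so that their sizes depend on the pseudocount. They were tested with limma in 1 fit of all 6 libraries over the 15004 genes whose mean RPKM reached 0.1. The call needed 2 things, a p below 0.05 after Benjamini-Hochberg (BH) adjustment over all tested genes and a log2 fold change of 1 or more in size, and "higher" or "lower" below means called unless said otherwise. Of the members, 29 of 31 were tested, and Sema3a and Sema5b were too low. Read totals of the libraries were not used here, but the steps between low RPKM values put the libraries at 0.842 to 1.10 times the depth of DP replicate 2. In the deposited TMM-normalized table, which lists 12 of the members, 1 RPKM stood for 118 normalized counts of Sema7a at the least and 453 of Plxna4 at the most. By exon length, 3 counts corresponded to an estimated 0.00650 to 0.0368 RPKM over the 31 members, and 4 members (Sema3a, Sema3g, Sema5b and Sema6b) had libraries at or under that floor, which covers counting error only.

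The libraries followed their sort labels. Mrgprd was at 219.8 and 277 RPKM in DP against at most 2.01 elsewhere, and Th, a defining gene of C-LTMRs, was at 1017 and 1038 RPKM in C-LTMR against at most 61.7 elsewhere. DN held high levels of several other cell types' markers. The summed RPKM of 18 satellite glia and Schwann cell markers was 9195 and 18939 in DN, 1317 and 1823 in DP and 2417 and 3332 in C-LTMR, and that of 13 endothelial markers was 469 and 782, 14.6 and 11, and 53.4 and 52.0 in the same order. In bulk samples fewer cells of a type and less RNA per cell cannot be told apart.

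The genes on which the results turn are shown first by the 250 bases before their RefSeq start (build GRCm38.p6): the receptor gene Nrp1 and the ligand gene Sema3e, which led in C-LTMR, and the plexin genes Plxnc1 and Plxnd1, which were called higher in DP than in C-LTMR. They were chosen with their values known. Plxnc1 was highest in DP and lies on the minus strand (chr10:94944846-94945095), with a RefSeq start 267 bases upstream of the end that the deposited table gives the gene. Nrp1 (plus strand, chr8:128358823-128359072) and Sema3e (plus strand, chr5:14025026-14025275) were highest in C-LTMR. Plxnd1 (minus strand, chr6:115995006-115995255) was lowest in C-LTMR. Capitals mark the GC box, GGGCGG or its reverse complement CCGCCC.
Plxnc1: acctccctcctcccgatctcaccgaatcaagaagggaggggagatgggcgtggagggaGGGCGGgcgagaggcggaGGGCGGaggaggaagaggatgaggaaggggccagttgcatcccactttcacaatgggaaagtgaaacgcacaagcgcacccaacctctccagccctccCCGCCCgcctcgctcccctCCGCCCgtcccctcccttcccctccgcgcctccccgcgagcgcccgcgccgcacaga
Nrp1: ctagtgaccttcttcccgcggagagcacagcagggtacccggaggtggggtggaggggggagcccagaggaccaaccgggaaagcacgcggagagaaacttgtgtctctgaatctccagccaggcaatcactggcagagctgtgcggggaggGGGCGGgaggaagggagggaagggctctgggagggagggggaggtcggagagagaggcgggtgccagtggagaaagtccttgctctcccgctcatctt
Sema3e: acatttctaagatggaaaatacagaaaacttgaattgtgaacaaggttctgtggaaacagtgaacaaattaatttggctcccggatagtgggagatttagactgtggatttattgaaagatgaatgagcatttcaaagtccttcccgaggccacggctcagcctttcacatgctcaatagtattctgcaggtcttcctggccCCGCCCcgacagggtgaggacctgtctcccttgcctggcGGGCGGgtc
Plxnd1: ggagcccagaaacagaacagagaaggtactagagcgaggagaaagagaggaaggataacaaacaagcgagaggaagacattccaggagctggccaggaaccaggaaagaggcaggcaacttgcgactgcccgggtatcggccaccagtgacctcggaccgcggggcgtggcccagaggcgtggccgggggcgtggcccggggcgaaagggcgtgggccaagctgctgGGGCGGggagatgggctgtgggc
The GC box was found on either strand in 27 of 37 windows of 300 bases (250 before and 50 after the start) of the 26 members with an entry, several of which have more than 1 window, or 73.0%, against 35.6% of all 32817 windows of that length in the table. The core Runx motif TGTGGT, of factors such as Runx1, which both GINIP+ neuron types are known to use, was in 5 of the 37 windows (13.5%) and in 16.8% of all windows, and not in the 4 printed sequences. TATAAA was in 0 of the 37 windows and in 13.6% of all. Member windows held a median of 15 CpG dinucleotides against 7 over all windows. Plxna1, Plxna4, Sema3b, Sema3f and Sema6a had no entry. A match is a description of letters and not a binding site.

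Neuropilin genes were lowest in DP. Nrp1, the neuropilin that Sema3a binds (Entrez 18186, chromosome 8, 128359073 to 128505475), was at 4.5 and 6.99 RPKM in DP, 71.9 and 95.3 in C-LTMR and 14.5 and 18.1 in DN. Its 3 groups did not overlap, with means of 5.74 ± 1.76, 83.6 ± 16.5 and 16.3 ± 2.57. All 3 comparisons were called, with a log2 fold change of -3.86 (SE 0.236, limma BH-adjusted p = 9.07e-05) in DP against C-LTMR, -1.51 (adjusted p = 0.00155) in DP against DN and 2.35 (adjusted p = 0.000219) in C-LTMR against DN. Nrp2, the neuropilin that prefers Sema3f (Entrez 18187, chromosome 1, 62703317 to 62818692), was at 0.422 and 0.536 RPKM in DP, 2.13 and 2.51 in C-LTMR and 2.79 and 2.51 in DN. Both other subsets were thus above DP, while C-LTMR and DN met at 2.51. Nrp2 was lower in DP than in C-LTMR (log2 fold change -2.07, SE 0.183, adjusted p = 0.000323) and than in DN (-2.25, adjusted p = 8.85e-05), and C-LTMR against DN did not pass (-0.19, adjusted p = 0.418). Nrp1 made up 91.4 and 92.9% of the summed neuropilin RPKM in DP, 97.1 and 97.4% in C-LTMR and 83.9 and 87.8% in DN.

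Class A plexin genes, the partners of neuropilins, were all highest in C-LTMR by mean. Plxna1 (Entrez 18844, chromosome 6, 89316314 to 89362613) was at 0.684 and 0.682 RPKM in DP, 2.13 and 2.32 in C-LTMR and 0.963 and 0.970 in DN. It was lower in DP than in C-LTMR (log2 fold change -1.57 with SE 0.160, limma BH-adjusted p = 0.000577) and higher in C-LTMR than in DN (1.12, adjusted p = 0.00109). An antisense gene, Gm26811, shares 10.7% of its exonic bases, and as no source names the strand setting of the counting, reads of the pair cannot be told apart. Plxna3 (Entrez 18846, chromosome X, 74329066 to 74344689) was at 0.875 and 0.827 RPKM in DP, 3.16 and 3.95 in C-LTMR and 3.15 and 2.55 in DN. Plxna4, the main partner of Nrp1 for Sema3a in sensory neurons (Entrez 243743, chromosome 6, 32144557 to 32588192), was at 1.06 and 0.808 RPKM in DP, 6.03 and 6.58 in C-LTMR and 4.32 and 3.42 in DN. For both genes the DP libraries lay below all others. Plxna3 was lower in DP than in C-LTMR (log2 fold change -1.93, SE 0.181) and than in DN (-1.63), and so was Plxna4 (-2.64, SE 0.184, and -1.95), with limma BH-adjusted p between 0.000135 and 0.000399. In C-LTMR against DN, Plxna4 was at 0.70 (adjusted p = 0.0158) and Plxna3 at 0.31 (adjusted p = 0.188), neither called. Plxna2, a receptor of Sema6a, was called in no comparison, at 2.22 and 2.71 RPKM in DP, 4.29 and 4.30 in C-LTMR and 3.57 and 3.44 in DN. Its groups did not overlap, but its largest log2 fold change was -0.78, in DP against C-LTMR (adjusted p = 0.0071). Summed over the 4 genes, class A plexin RPKM was 4.84 and 5.03 in DP, 15.6 and 17.1 in C-LTMR and 12 and 10.4 in DN.

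Class B plexin genes, which encode receptors of class 4 semaphorins, were higher in DN than in both GINIP+ subsets. Plxnb1, the receptor of Sema4d (Entrez 235611, chromosome 9, 109095436 to 109119915), was at 0.246 and 0.349 RPKM in DP, 0.190 and 0.296 in C-LTMR and 1.86 and 2.02 in DN. Plxnb2 (Entrez 140570, chromosome 15, 89155549 to 89180788) was at 0.992 and 1.02 RPKM in DP, 0.936 and 1.15 in C-LTMR and 3.05 and 3.66 in DN. Plxnb3 (Entrez 140571, chromosome X, 73757103 to 73772510) was at 0.491 and 0.391 RPKM in DP, 0.139 and 0.327 in C-LTMR and 2.48 and 3.25 in DN. For each gene the DN libraries were above the other 4, and for Plxnb1 and Plxnb2 the DP and C-LTMR libraries overlapped. Against DN, log2 fold changes ran from -1.63 (Plxnb2) to -2.45 (Plxnb3) in DP and from -1.60 (Plxnb2) to -3.20 (Plxnb3) in C-LTMR, with limma BH-adjusted p from 0.000165 to 0.000649. None of the 3 was called between DP and C-LTMR (adjusted p 0.122 to 0.903).

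Plxnc1 and Plxnd1, each the sole member of its class in mouse, were both higher in DP than in C-LTMR. Plxnc1, the receptor of Sema7a (Entrez 54712, chromosome 10, 94790866 to 94944578), was at 74.7 and 77.2 RPKM in DP, 25.3 and 26.3 in C-LTMR and 3.01 and 2.82 in DN, with means of 76.0 ± 1.8, 25.8 ± 0.715 and 2.91 ± 0.135. It stepped down from DP to C-LTMR to DN without overlap. Log2 fold changes were 1.55 for DP against C-LTMR (SE 0.0891, limma BH-adjusted p = 7.35e-05), 4.66 for DP against DN (adjusted p = 2.03e-06) and 3.11 for C-LTMR against DN (adjusted p = 2.97e-06). It made up 78.5 and 77.6% of all plexin RPKM in DP, 55.5 and 53.7% in C-LTMR and 9.37 and 8.97% in DN, where Plxnd1 was the highest plexin gene. Plxnd1, which Sema3e binds without a neuropilin (Entrez 67784, chromosome 6, 115954811 to 115995005), was at 13.9 and 15.5 RPKM in DP, 3.41 and 3.80 in C-LTMR and 9.70 and 9.29 in DN. C-LTMR libraries were the lowest, and no groups overlapped. Plxnd1 was higher in DP than in C-LTMR (log2 fold change 2.0, SE 0.115, adjusted p = 7.42e-05) and lower in C-LTMR than in DN (-1.38, adjusted p = 9.77e-05). DP against DN gave 0.62 (adjusted p = 0.00333), under the fold criterion. The plot of receptor genes by library shows these levels.

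**Figure D1:**
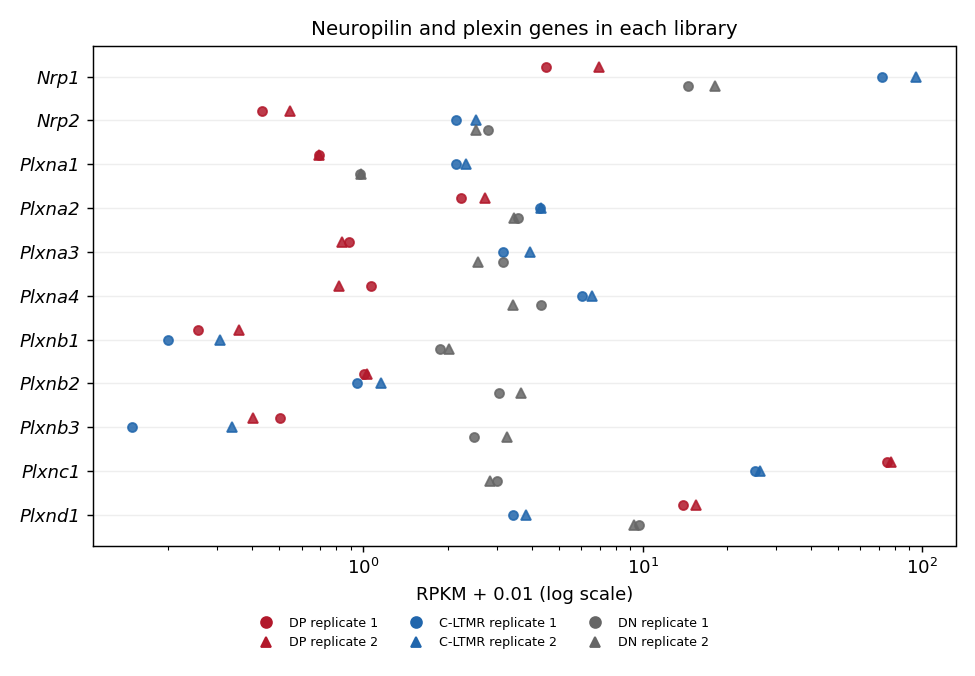
RPKM + 0.01 (horizontal, log scale) of the 2 neuropilin and 9 plexin genes (vertical), with 1 point per library. Red is DP, blue C-LTMR and grey DN, circles are replicate 1 and triangles replicate 2. Nrp1 is highest in C-LTMR (71.9 and 95.3 RPKM), Plxnc1 in DP (74.7 and 77.2 RPKM), and the class B plexin genes in DN.

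Of the secreted semaphorins, Sema3e was called higher in C-LTMR than in both other subsets. Sema3e, the ligand of Plxnd1 (Entrez 20349, chromosome 5, 14025276 to 14256689), was at 0.582 and 0.802 RPKM in DP, 9.36 and 10.1 in C-LTMR and 0.239 and 0.456 in DN, with means of 0.692 ± 0.156, 9.75 ± 0.546 and 0.348 ± 0.153. Its C-LTMR libraries stood above all others, and DP and DN did not overlap. The log2 fold change was -3.65 for DP against C-LTMR (SE 0.271, limma BH-adjusted p = 0.000167) and 4.5 for C-LTMR against DN (adjusted p = 2.66e-05). DP against DN was at 0.85 (adjusted p = 0.0313), not called, and at 1.04 (adjusted p = 0.0415), called, in the TMM-normalized table. Sema3e took 56.3 and 52.8% of all class 3 semaphorin RPKM in C-LTMR, 7.08 and 7.55% in DP and 0.488 and 0.663% in DN. Sema3c (Entrez 20348, chromosome 5, 17574816 to 17730267) was at 1.49 and 1.81 RPKM in DP, 3.50 and 3.40 in C-LTMR and 2.0 and 2.97 in DN. These groups did not overlap, and DP against C-LTMR was called (-1.03, SE 0.213, adjusted p = 0.0121).

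Of the other secreted semaphorins, 4 were higher in DN than in both GINIP+ subsets. Sema3b (Entrez 20347, chromosome 9, 107598115 to 107609241) was at 5.82 and 7.38 RPKM in DP, 2.78 and 4.81 in C-LTMR and 39.0 and 57.5 in DN, where it was the most abundant semaphorin gene. Sema3f, the ligand of Nrp2 (Entrez 20350, chromosome 9, 107681502 to 107710475), was at 0.300 and 0.497 RPKM in DP, 0.903 and 0.761 in C-LTMR and 6.46 and 5.37 in DN. In both genes the lowest DN library was above every library of the other subsets. Sema3b gave log2 fold changes of -2.84 (SE 0.290, limma BH-adjusted p = 0.000235) in DP and -3.66 (adjusted p = 7.9e-05) in C-LTMR against DN, and Sema3f -3.62 (adjusted p = 3.9e-05) and -2.69 (adjusted p = 0.000128). Sema3g (Entrez 218877, chromosome 14, 31217873 to 31229511), known from endothelium, was at 0.0129 and 0.0734 RPKM in DP, 0.00817 and 0.0486 in C-LTMR and 1.14 and 2.18 in DN. Replicate 1 of DP and of C-LTMR were under its estimated floor of 0.0268 RPKM, and its fitted changes of -3.59 and -3.73 against DN depend on the pseudocount. Sema3d (Entrez 108151, chromosome 5, 12383166 to 12588943) was at 0.0219 and 0.0600 RPKM in DP, 0.0583 and 0.0427 in C-LTMR and 0.140 and 0.298 in DN, and was called lower in DP (-1.15, adjusted p = 0.0214) and in C-LTMR (-1.04, adjusted p = 0.0317) than in DN. Sema3a, the classical repellent of Nrp1-bearing axons, was not tested. It was listed at 0 and 0.00716 RPKM in DP, at 0.0160 and 0.00425 in C-LTMR and at 0.0387 and 0.0255 in DN, beside an estimated floor of 0.00876 RPKM. Both DN libraries were above the other 4 for Sema3a, a difference that was not tested.

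Semaphorin genes that neighbour each other differed in pattern on chromosome 5, which carries Sema3d, Sema3a, Sema3e and Sema3c in that order, with gaps of 808, 422 and 3318 kb. Sema3a was not tested. Among the other 3, only Sema3e was called higher in C-LTMR than in both other subsets, and Sema3d was called higher in DN than in both others. The Sema3d calls are weak. Its mean over all libraries was 0.103 RPKM, just over the filter of 0.1. Its call in DP against DN was lost in 5 of 13 alternatives, and that in C-LTMR against DN in 6 of 13. On chromosome 9, Sema3b and Sema3f are 72.3 kb apart, and both were higher in DN than in the GINIP+ subsets.

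Among membrane semaphorins, Sema7a had the largest difference between the GINIP+ subsets. Sema7a, a ligand of Plxnc1 held in the membrane by a lipid anchor (Entrez 20361, chromosome 9, 57940135 to 57962865), was at 0.718 and 0.964 RPKM in DP, 9.24 and 10.7 in C-LTMR and 7.31 and 11.5 in DN. DP libraries lay below all others, and the C-LTMR libraries fell within the range of DN. It was lower in DP than in C-LTMR (log2 fold change -3.43 with SE 0.240, limma BH-adjusted p = 0.000137) and than in DN (-3.31, adjusted p = 5.59e-05), with 0.12 for C-LTMR against DN (adjusted p = 0.705). The subset with the most Plxnc1 was thus the one with the least Sema7a. For Sema3e and its receptor Plxnd1, the subset with the most ligand RNA, C-LTMR, had the least receptor RNA. By mean, Sema6a was also lowest in C-LTMR, where its receptors Plxna2 and Plxna4 were highest. Likewise, Sema6d was lowest in C-LTMR, where its receptor Plxna1 was highest. Neither Sema6a nor Sema6d was called between DP and C-LTMR. In DP against DN, Sema6a and Plxna4 went the same way, both lower in DP (log2 fold changes -1.79 and -1.95). Some pairs did not show such opposite levels: by mean, Sema3f and Nrp2 were both lowest in DP and highest in DN. Sema4d and Plxnb1 were both highest in DN.

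Class 4 semaphorins, transmembrane ligands of which Sema4d is the best known, held the most abundant semaphorin gene of both GINIP+ subsets. That gene was Sema4f (Entrez 20355, chromosome 6, 82911885 to 82939750), at 10.3 and 11.5 RPKM in DP, 23.6 and 25 in C-LTMR and 19.0 and 14.5 in DN, and lower in DP than in C-LTMR (log2 fold change -1.15 with SE 0.145, limma BH-adjusted p = 0.00145). Sema4b (Entrez 20352, chromosome 7, 80186841 to 80226524) was at 8.49 and 9.36 RPKM in DP, 5.65 and 5.83 in C-LTMR and 2.43 and 3.30 in DN. It fell in steps from DP to DN with no overlap and in the RPKM fit was the only semaphorin called higher in DP than in DN (1.62, SE 0.163, adjusted p = 0.000219). Sema4c (Entrez 20353, chromosome 1, 36548642 to 36558381) was at 2.85 and 2.53 RPKM in DP, 0.954 and 1.09 in C-LTMR and 6.83 and 7.89 in DN. Called in all 3 comparisons, Sema4c was higher in DP than in C-LTMR (1.31, SE 0.153, adjusted p = 0.00106) and lower than in DN in both (-1.42 and -2.73). A processed transcript on the opposite strand, D430040D24Rik, shares 7.27% of its exonic bases. Sema4a (Entrez 20351, chromosome 3, 88435962 to 88461182) was at 0.428 and 0.438 RPKM in DP, 0.533 and 0.717 in C-LTMR and 3.75 and 4.33 in DN, and lower than in DN in DP (-2.95, adjusted p = 4.02e-05) and in C-LTMR (-2.52, adjusted p = 7.24e-05). Sema4g (Entrez 26456, chromosome 19, 44989344 to 45003395) was at 0.0961 and 0.103 RPKM in DP, 0.523 and 0.813 in C-LTMR and 0.529 and 0.506 in DN. Only DP stood apart, below C-LTMR (-1.92, SE 0.249, adjusted p = 0.00167) and below DN (-1.63, adjusted p = 0.00142). Sema4d, which binds Plxnb1, was called in no comparison, at 7.61 and 8.06 RPKM in DP, 7.63 and 7.91 in C-LTMR and 9.09 and 7.27 in DN. The ranges of all 3 subsets overlapped, with log2 fold changes between -0.06 and 0.01 (adjusted p 0.702 to 0.959).

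Of the class 5 and class 6 semaphorins, also transmembrane, Sema5a, Sema6a and Sema6b were higher in DN than in both GINIP+ subsets. Sema5a (Entrez 20356, chromosome 15, 32244813 to 32696341) was at 0.110 and 0.152 RPKM in DP, 0.0784 and 0.217 in C-LTMR and 2.72 and 1.88 in DN. Sema6a, a ligand of Plxna2 and Plxna4 (Entrez 20358), was at 0.544 and 0.648 RPKM in DP, 0.309 and 0.467 in C-LTMR and 1.71 and 3.08 in DN. Both genes were highest in both DN libraries, and the fitted changes against DN were -3.36 (SE 0.336) and -3.31 for Sema5a and -1.79 (SE 0.312) and -2.32 for Sema6a in DP and C-LTMR (limma BH-adjusted p 0.000211 to 0.00255). Sema6b (Entrez 20359, chromosome 17, 56123085 to 56140343) was at 0.743 and 0.922 RPKM in DN and called lower in DP (-2.90, adjusted p = 0.0001) and C-LTMR (-3.11, adjusted p = 7.39e-05), sizes that depend on the pseudocount. Its libraries of these subsets, 0.0239 and 0.0247 RPKM in DP and 0.0147 and 0.00109 in C-LTMR, were all under the estimated floor of 0.0306 RPKM, so no fold change between them is given. Sema6c (Entrez 20360, chromosome 3, 95164374 to 95173316) was at 0.131 and 0.198 RPKM in DP, 0.0840 and 0.137 in C-LTMR and 0.362 and 0.327 in DN, and lower in C-LTMR than in DN (-1.09, adjusted p = 0.0106). Sema6d, a ligand of Plxna1, was called in no comparison, at 6.90 and 7.70 RPKM in DP, 5.23 and 5.37 in C-LTMR and 7.6 and 6.30 in DN. Sema5b, not tested, stayed between 0.00573 and 0.124 RPKM. Levels of all 20 semaphorin genes appear in the plot by library.

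**Figure D2:**
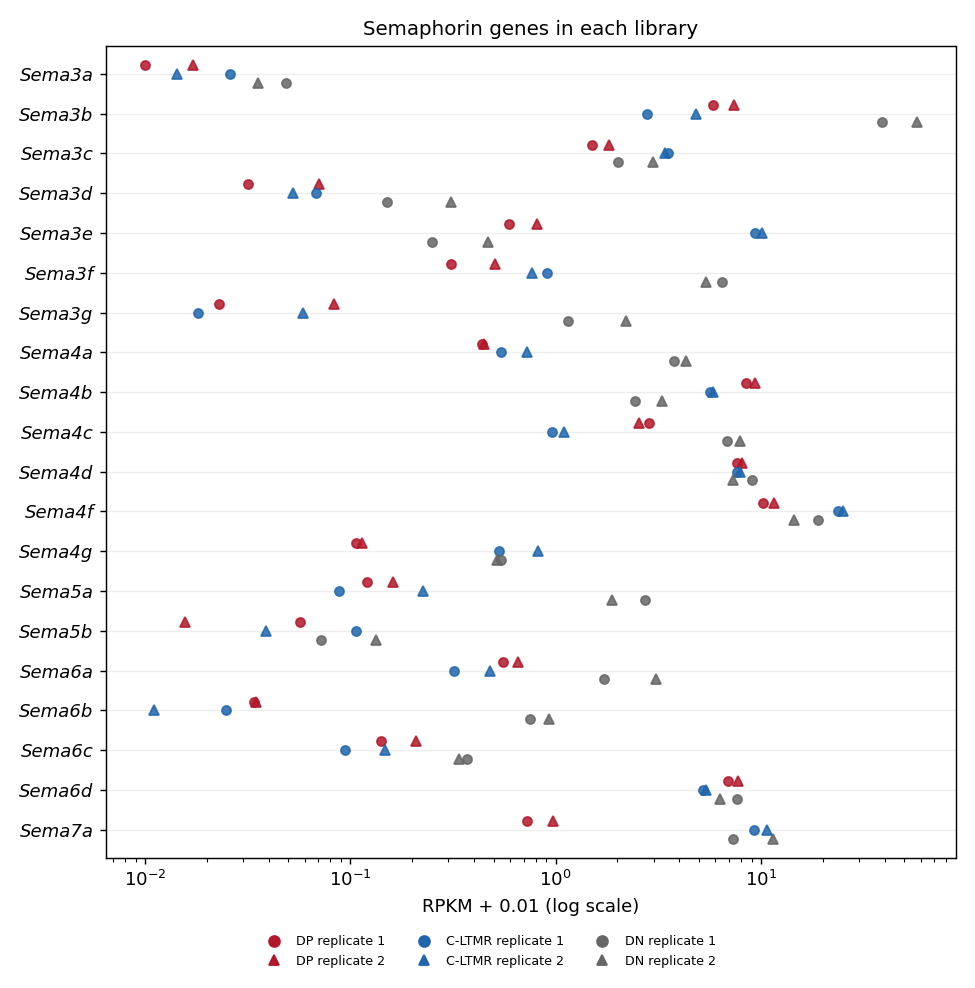
RPKM + 0.01 (horizontal, log scale) of the 20 semaphorin genes (vertical), with 1 point per library. Red is DP, blue C-LTMR and grey DN, circles are replicate 1 and triangles replicate 2. Sema3e stands apart in C-LTMR (9.36 and 10.1 RPKM), Sema7a is low in DP (0.718 and 0.964 RPKM), and Sema3b is highest in DN (39.0 and 57.5 RPKM).

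By mean, 10 members were highest in C-LTMR, 4 in DP (Plxnc1, Plxnd1, Sema4b and Sema6d) and 17 in DN. A mean of 1 RPKM or more was reached by 12 members in DP, by 18 members in C-LTMR and by 23 in DN. Neither count was made over all genes, so they cannot be read as particular to the family. Calls over all genes also leaned toward DN, with 3770 higher in DN and 1168 in DP, and 3462 higher in DN and 1297 in C-LTMR. Summed semaphorin RPKM was 46.4 and 52.4 in DP, 70.6 and 77.5 in C-LTMR and 111 and 131 in DN, and summed plexin RPKM was 95.1 and 99.5, 45.6 and 49.0, and 32.1 and 31.4 in the same order. Single genes weigh heavily in these sums. Sema3b alone was at 39.0 and 57.5 RPKM in DN, against 2.78 to 7.38 elsewhere. Plxnc1 was 78.5 and 77.6% of the plexin sum in DP, while the class A plexin sum was lowest there (4.84 and 5.03 RPKM).

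Between DP and C-LTMR, which asks how the GINIP+ neuron types that IB4 separates differ, 13 of 29 members were called, 3 higher in DP (Plxnc1, Plxnd1 and Sema4c) and 10 higher in C-LTMR (both neuropilins, Plxna1, Plxna3, Plxna4, Sema3c, Sema3e, Sema4f, Sema4g and Sema7a). The called share was 44.8%, against 15.1% of all 15004 genes tested. In C-LTMR the share called higher was 34.5% against 8.56% of all genes, and in DP 10.3% against 6.54%. The members' median log2 fold change was -0.05, and that of all genes -0.05. The call of Sema3c ended on leaving out DP replicate 1 (limma BH-adjusted p = 0.0912), C-LTMR replicate 1 (0.0658) or C-LTMR replicate 2 (0.06), without a filter (0.0777), rescaled to pan-sensory-neuron genes (0.0502) and under quantile normalization (log2 fold change -0.80), and Sema3c, Sema4c, Sema4g and Plxna1 fell under the fold criterion at a pseudocount of 1.

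For DP against DN, Mrgprd+ neurons beside the cells left by both gates, 20 of 29 members were called, 2 higher in DP (Plxnc1 and Sema4b) and 18 higher in DN. The called share was 69.0% against 32.9% of all genes, with 62.1% higher in DN against 25.1% and 6.90% higher in DP against 7.78%. The median log2 fold change of the members was -1.63, against -0.19 over all genes. The call of Sema3d ended on leaving out DP replicate 1 (limma BH-adjusted p = 0.116), DN replicate 2 (0.059) or a filter (0.0626). Under quantile normalization, which split all called genes into 2412 higher and 2685 lower in DP in place of 1168 and 3770, the members split into 3 and 13, and Plxna3, Plxnb2, Sema3d, Sema4g and Sema6a lost their calls. At a pseudocount of 1, Sema3d, Sema4g and Sema6b did.

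In C-LTMR against DN, 18 of 29 members were called, 4 higher in C-LTMR (Nrp1, Plxna1, Plxnc1 and Sema3e) and 14 higher in DN. This was 62.1% of the members against 31.7% of all genes, with 48.3% against 23.1% higher in DN and 13.8% against 8.64% higher in C-LTMR. The members' median log2 fold change was -0.38, against -0.09 over all genes. Quantile normalization split the members into 7 higher and 12 lower in C-LTMR and all called genes into 2449 and 2560, in place of 1297 and 3462, and ended the calls of Sema3d and Sema6c. Sema3d also lost its call on leaving out C-LTMR replicate 1 (limma BH-adjusted p = 0.0849), C-LTMR replicate 2 (0.121), DN replicate 2 (0.0896), a filter (0.08) or at a pseudocount of 1, Sema6c without C-LTMR replicate 1 (0.0645) or at a pseudocount of 1, Sema6b at a pseudocount of 1, and Plxna1 at a pseudocount of 1 or rescaled to pan-sensory-neuron genes (log2 fold change 0.62). The 3 comparisons share libraries, so each gene's values stand side by side in the plot of differences and are not separate evidence.

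**Figure D3:**
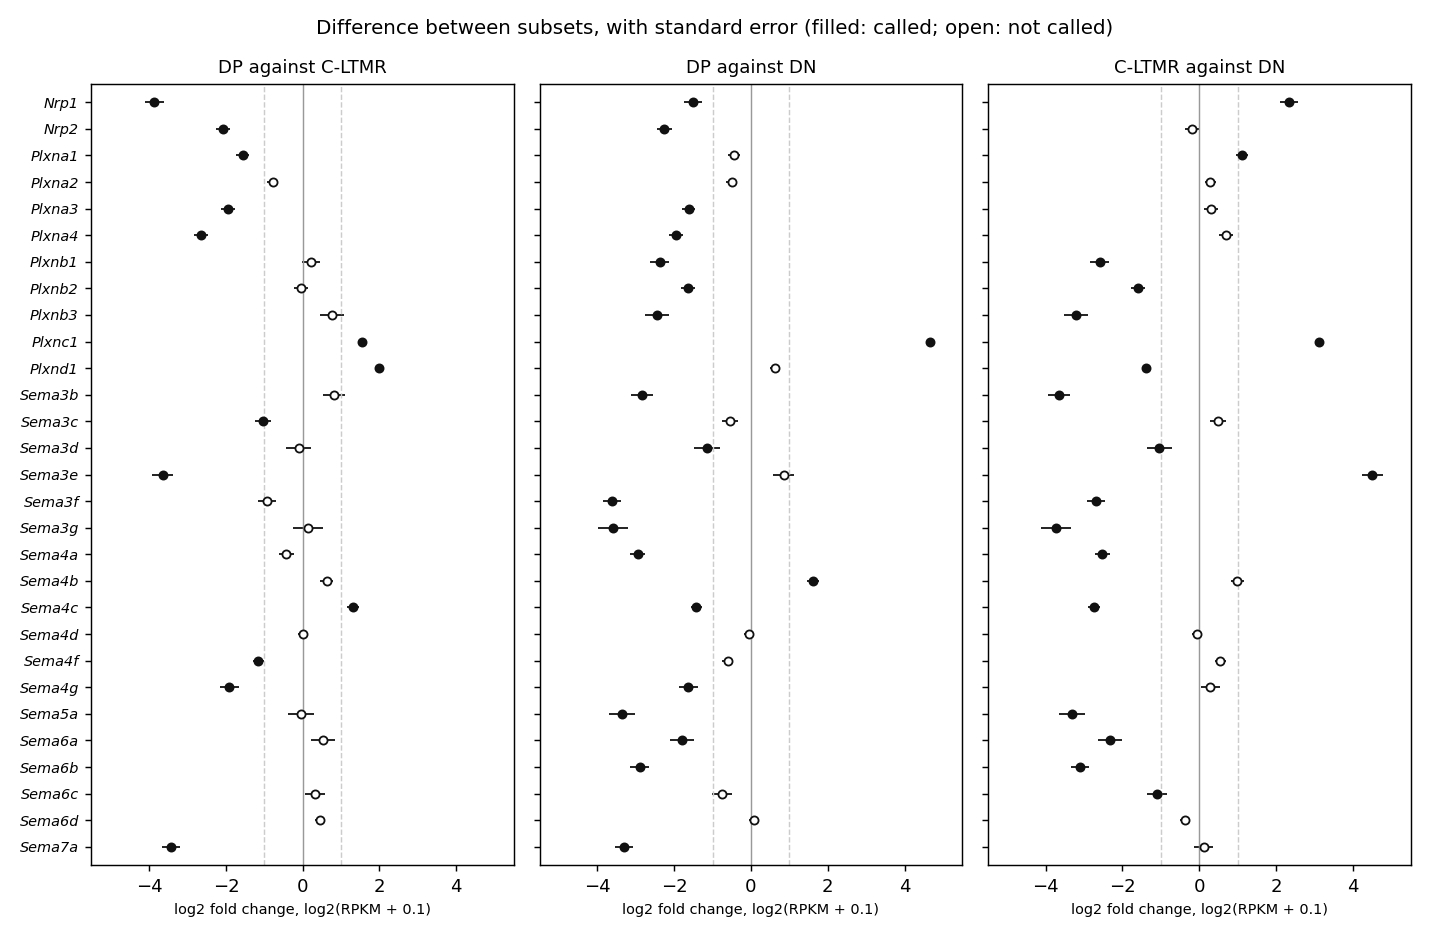
Log2 fold change on log2(RPKM + 0.1) (horizontal) of the 29 tested members (vertical) in the 3 comparisons, except Sema6b in DP against C-LTMR, with bars of 1 standard error from the limma fit, and values above 0 meaning higher in the subset named first. Filled points were called and open points were not, and dashed lines mark the fold criterion of 1. Plxnc1 lies at 1.55, 4.66 and 3.11 from left to right and Nrp1 at -3.86, -1.51 and 2.35.

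The members higher in DN stand beside markers of other cells. All 13 endothelial markers were lower in DP than in DN and 12 in C-LTMR, and of 18 glial markers 17 were lower in each. Of 12 pericyte and fibroblast markers, 9 were lower in DP than in DN and 10 in C-LTMR, where 2 were higher than in DN. The summed RPKM of the 12 was 348 and 498 in DN against 29.0 to 31.4 in DP and 86.7 to 93.0 in C-LTMR. The C-LTMR sum was mostly Rgs5, at 79.5 and 82.3 RPKM there, against 6.42 and 6.85 in DP and 6.77 and 12.7 in DN. Among defining endothelial genes, Cldn5 was at 127 and 217 RPKM in DN and between 0.0875 and 1.81 elsewhere, and Tie1 was listed at 0 in both C-LTMR libraries. Slco1a4, Emcn and Gjb1 were listed at 0 in 1 C-LTMR library each and Kcnj8 in both. DN also held 7 peptidergic nociceptor markers summing to 8913 and 8056 RPKM, against 1333 to 1660 in the GINIP+ subsets (6 of 7 lower in each), while 9 markers of myelinated neurons summed to 279 to 395 in all libraries, Runx3 being listed at 0 in 1 C-LTMR library. These sums were mostly Nefm, at 149 to 287 RPKM. Nefm, Nefh, Pvalb and Runx3 were called in no comparison, and the other markers of the 9 moved in opposite directions. Ntrk2 and Spp1 were lower in DP and in C-LTMR than in DN. Ntrk3, Necab2 and Etv1 were higher in C-LTMR than in DN and in DP, and Ntrk3 was higher in DP than in DN. The part of these cells in the members' differences was not tested.

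The DN libraries differed from each other in these markers, glial markers being 2.06 times and endothelial markers 1.67 times as high in replicate 2 as in replicate 1, and 20 pan-sensory-neuron genes 0.742 times as high (summing to 11356 and 8429 RPKM in DN and 12092 to 12791 elsewhere). The glial sum was mostly Apoe, at 5710 and 12918 RPKM, and Fabp7, at 1282 and 3542. Without them the other glial markers were 1.13 times as high in replicate 2, and 12 of 18 were higher there, while markers of myelinating Schwann cells such as Mbp (392 and 339.6 RPKM), Prx (28.3 and 20.8) and Gjb1 (8.22 and 5.68) were lower. Sema3d was 2.12 times, Sema3g 1.90 times, Sema6a 1.8 times, Sema7a 1.57 times and Sema3b 1.47 times as high in replicate 2, and so were Sema3e, 1.91 times, and Sema3c, 1.49 times, which were highest in C-LTMR. Sema5a was 0.691 times and Sema3f 0.831 times as high there. Of 14 members called and highest in DN, 10 were higher in replicate 2, and of all 31 members 17 were. Between DP and C-LTMR immune cell markers differed, summing to 176 and 187 RPKM in DP and 5.41 and 10.1 in C-LTMR over 12 genes (8 called higher in DP, with S100a9 and Itgam listed at 0 in 1 C-LTMR library), with 60.2 and 103 in DN. The DP sum was mostly S100a9 (102 and 115 RPKM), Lyz2 (34.3 and 29.8) and Ngp (27.3 and 29.1). Of the endothelial list, 4 were higher in DP and 2 in C-LTMR, whose sum was mostly Egfl7 at 46.9 and 47.0 RPKM. Of the pericyte and fibroblast list, 5 were higher in DP and 2 in C-LTMR, and of the glial list 1 and 2. Their part in the differences of the members was not tested.

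**Figure D4:**
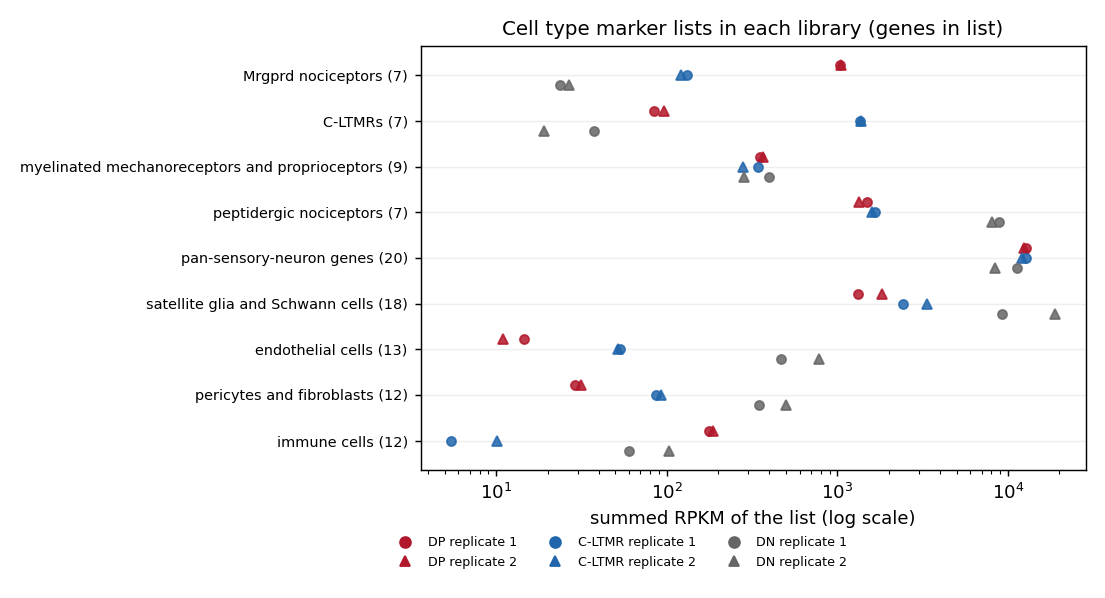
Summed RPKM (horizontal, log scale) of each cell type marker list (vertical, with its number of genes), with 1 point per library. Red is DP, blue C-LTMR and grey DN, circles are replicate 1 and triangles replicate 2. Endothelial markers sum to 469 and 782 RPKM in DN against 53.4 or less elsewhere, and glial markers to 9195 and 18939 against 3332 or less.

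Other genes of the pathway were read from a list of 60 that holds co-receptors, ligand processing and plexin effectors, of which 59 were tested. Between DP and C-LTMR, 10 were called (16.9%, against 15.1% of all genes), of which 6 were higher in DP and the other 4 in C-LTMR. Toward C-LTMR, Nrcam, an adhesion molecule that partners Nrp2, was at 0.543 and 0.817 RPKM in DP and 3.77 and 4.04 in C-LTMR (log2 fold change -2.38 with an SE of 0.200, limma BH-adjusted p = 0.00026). Rnd2, a small GTPase, was at 2.97 and 3.86 RPKM against 15.8 and 15.9 (-2.19), and Mst1r, a receptor tyrosine kinase known to associate with class B plexins, at 0.399 and 0.377 against 1.94 and 1.65 (-1.95). In these genes the subsets did not overlap. Toward DP, Tyrobp, a signalling adaptor of myeloid cells that can join Plxna1, was at 4.13 and 3.63 RPKM against 0 and 0.0547. Cspg4, a proteoglycan and pericyte marker, was at 0.823 and 0.676 RPKM against 0.0290 and 0.0615, and Fes, a tyrosine kinase, at 0.480 and 0.505 against 0.127 and 0.0840. Between DP and C-LTMR, Tyrobp moved with the immune markers given above, of which 8 were higher in DP and 0 lower. Against DN those markers split, with 3 higher and 4 lower in DP. The source of Tyrobp was not tested. At a pseudocount of 1 the list had 1 gene higher in DP and 4 in C-LTMR.

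Against DN, 26 of 59 pathway genes were called in DP (44.1%, 3 higher and 23 lower) and 26 in C-LTMR (44.1%, 2 higher and 24 lower), beside 32.9% and 31.7% of all genes. The 3 largest calls toward DN were those of the VEGF receptor gene Flt1, Rnd1 and the VEGF receptor gene Kdr. Flt1 was at 12.1 and 20.5 RPKM in DN, 0.204 and 0.0748 in DP and 0.0186 and 0.0114 in C-LTMR, and Kdr was at 3.62 and 5.62, 0.0506 and 0.0274, and 0.00536 and 0.0132. Flt1 and Kdr are also in the endothelial list. Rnd1, a GTPase that binds plexins, was at 44.6 and 74.4 RPKM in DN against 0.782 and 0.711 in DP and 0.424 and 0.267 in C-LTMR. All 3 were higher in replicate 2 of DN, as was the summed endothelial list. Higher in DP were Limk1, a kinase that acts on cofilin (24.0 and 25.1 RPKM against 9.85 and 7.28), Tyrobp (against 1.74 and 1.28) and Arhgef11, an exchange factor that class B plexins bind (5.08 and 5.15 against 2.65 and 1.71). Higher in C-LTMR were Ptk7, a co-receptor of plexins (3.66 and 4.22 RPKM against 0.728 and 0.539; log2 fold change 2.47 with SE 0.203, limma BH-adjusted p = 9.03e-05), and Cntn2, an adhesion molecule of sensory axons (19.2 and 19.3 against 9.93 and 5.38; 1.38, SE 0.257, adjusted p = 0.00355). Under quantile normalization the C-LTMR split was 6 higher and 17 lower, and 16 genes were called in DP against DN at a pseudocount of 1.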

How the data were processed

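Total RNA from sorted cells, 50 ng per sample, was amplified and made into TruSeq libraries, per the labels' protocols. The submitters' processing notes name CASAVA 1.8.2, edgeR 2.6.2 and the builds GRCm38 and mm10; for the annotation, strand setting and step of each tool: not given in the sources used here. RPKM values of 23029 genes (19 repeated symbols) were deposited by the authors, as was a table whose signal is a TMM-normalized count brought to a common library size, of 6620 genes, each reaching 892 in both libraries of at least 1 subset.

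From the RPKM values, log2(RPKM + 0.1) of genes with a mean of at least 0.1 over the 6 libraries was fitted with limma 3.58.1 (R 4.3.3, trend, 3 residual and a median of 3.69 prior degrees of freedom). The same step was tested on simulated data, in which no gene of low abundance was changed and every change set was over the fold criterion. That run therefore does not speak of calls of low members or of changes near the criterion. RPKM served because the TMM-normalized table lists 12 of 31 members. Genes with values in every library were the called members and the most abundant uncalled member per class, and, of the other pathway genes, the 3 largest calls in each direction. The family, its symbol rule and the lists were chosen with earlier results of these data known, though the rule itself reads no value. Depth ratios came from the steps of RPKM values under 0.15, exon lengths from GENCODE M21, promoters from RefSeq. All 31 Entrez IDs matched RefSeq at their position. Alternatives were pseudocounts of 1 and 0.01, no filter, the TMM-normalized table, rescaling to 20 pan-sensory-neuron genes, quantile normalization, the 4 libraries compared, a replicate block and leaving out each library. Python 3.11.15 with pandas 2.3.3, numpy 2.4.6 and matplotlib 3.10.9 was used for summaries and plots.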

Additional observations from a re-analysis of the deposited data

How the results depend on the processing

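Of the 51 calls of members over the 3 comparisons, 37 were kept under all 14 alternatives that could test them, and in no case did a called member change direction. The TMM-normalized table kept all 18 calls it could test, but it comes from the same 6 libraries and is not separate evidence. It lists only genes that reached 892 in both libraries of at least 1 subset. Members such as Sema3e, at 2262 and 2460 in C-LTMR and 58.2 to 200 elsewhere, entered it through the subset where they were high. With fewer genes listed it called 7 of 12 members in DP against C-LTMR (2 higher and 5 lower), 7 in DP against DN (3 and 4) and 5 in C-LTMR against DN (3 and 2, with a median of 0.36 over the 12), and 2, 8 and 7 of 32 pathway genes. A pseudocount of 1 called 5 pathway genes in DP against C-LTMR and 16 in DP against DN, and ended 11 calls of members. Over all genes it called 1194, 3140 and 3013 in the 3 comparisons and, in the TMM-normalized table, the counts were 843, 1645 and 1562, in place of 2266, 4938 and 4759. Sizes moved over 1.5 times in 32 of the 51 calls at a pseudocount of 1, in 10 at 0.01 and in 24 under quantile normalization, which ended 8. Rescaling to pan-sensory-neuron genes moved the median of all genes to -0.64 in DP against DN and -0.59 in C-LTMR against DN, quantile normalization to 0.15 and 0.17. That rescaling split all called genes into 723 higher and 5259 lower in DP, and 747 and 4933 in C-LTMR, against DN. Leaving out 1 library gave 12 to 14 called members in DP against C-LTMR, 20 in DP against DN and 17 or 18 in C-LTMR against DN, and moved no called log2 fold change by more than 0.437. The replicate numbers were not taken as a pairing, since the labels give no tie between samples of the same number. Same-numbered libraries deviated together with r = 0.301 (DP and C-LTMR), 0.0961 (DP and DN) and 0.237 (C-LTMR and DN). These values were set against no threshold and cannot decide whether the libraries were paired. With the replicate block, 13, 20 and 18 members were called, and all 51 calls were kept, with 11, 26 and 26 pathway genes. With 2 libraries per subset, depth limits Sema3a, Sema5b, Sema3g and Sema6b.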
